A study of Mus musculus with 7 samples.

Results

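The Toll-like receptor family was followed in inguinal white fat, a depot under the skin of the groin, through 10 genes chosen by symbol: Tlr1 to Tlr9 and Tlr13. They are 10 of 55487 genes in the count table, and each was read from 1 row per gene identifier in all 7 libraries. All mice were NOD/ShiLtJ, a strain that develops autoimmune diabetes, whose blood glucose lay between 190 and 230 mg/dL at treatment. The 3 sham libraries came from mice given KRBH buffer. The 4 imBAT libraries came from mice injected under the skin for 7 days with 1.5 mg/kg body weight of imBAT conditioned buffer, the fraction above 100 kDa of buffer conditioned by brown adipocytes. Tissue was taken 2 to 8 weeks after the injections, and the week of each library is not stated. The labels give neither age nor sex. They do not tie libraries to individual mice, and a p-value here rests on how far libraries differ, which may be partly technical.

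Toll-like receptors are membrane proteins of innate immunity that bind molecules of microbes and some released by damaged cells. Tlr1, Tlr2, Tlr4, Tlr5 and Tlr6 act mainly at the cell surface, where they sense lipoproteins, lipopolysaccharide and flagellin. Tlr3, Tlr7, Tlr8, Tlr9 and Tlr13 act in endosomes, where they sense nucleic acids. Nearly all signal through the adaptor Myd88 to NF-kB and interferon regulatory factors, while Tlr3 uses Ticam1 and Tlr4 uses both. In fat, macrophages, lymphocytes, endothelium and cells of the adipocyte lineage can express members of the family.

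Libraries held 41025786 to 44983250 counts in sham and 43360208 to 63650016 in imBAT. Of 26393 genes tested, 43.5% were called changed at an adjusted p under 0.05 (edgeR quasi-likelihood test, Benjamini-Hochberg adjustment), 24.3% higher and 19.3% lower in imBAT, so a call on its own is common in this comparison. The tissue label was checked on adipocyte markers: all 8 were detected, with a summed level of 957.2 to 1718 CPM (counts scaled to library size with TMM) in sham and 7196 to 15025 CPM in imBAT. Of these, Lep stood at only 0.1547, 0.8636 and 2.252 CPM in sham, against 182.4 to 331.7 CPM in imBAT. B cell markers summed to 1546 to 1856 CPM in sham and 246.2 to 661 CPM in imBAT. Markers of lymph node stroma and venules summed to 751.4 to 1153 CPM in sham and 203.3 to 493.5 CPM in imBAT. A lower level of a gene in whole tissue can come from fewer cells of a type, less RNA per cell or more RNA of other cells. These cannot be told apart here, and the share of lymph node in each library was not tested.

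All 10 receptor genes were detected in every library, with 121 to 4088 counts each, and all passed the filter on low counts. In imBAT 4 were higher (Tlr3, Tlr4, Tlr5, Tlr8) and 2 were lower (Tlr1, Tlr6), beside 43.5% called among all genes. Tlr2, Tlr7, Tlr9 and Tlr13 were not called. The median log2 fold change was 0.38 over the 10 genes and -0.01 over all genes tested. The groups did not overlap for 7 of the 10, 4 of them higher and 3 lower in imBAT, and for 52.0% of all genes, 26.8% higher and 25.2% lower. The T and B cell markers, averaged as log2 CPM into a lymphoid score, stood at 7.16 to 7.31 in sham and 4.42 to 5.96 in imBAT. With it as a covariate none of the 10 genes was called, and no gene of the whole table was, by edgeR. The score and the group cannot be told apart in these libraries. Of the 5 surface receptors 2 rose, 2 fell and 1 was not called. Of the 5 endosomal receptors 2 rose, none fell and 3 were not called.

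**Figure D1:**
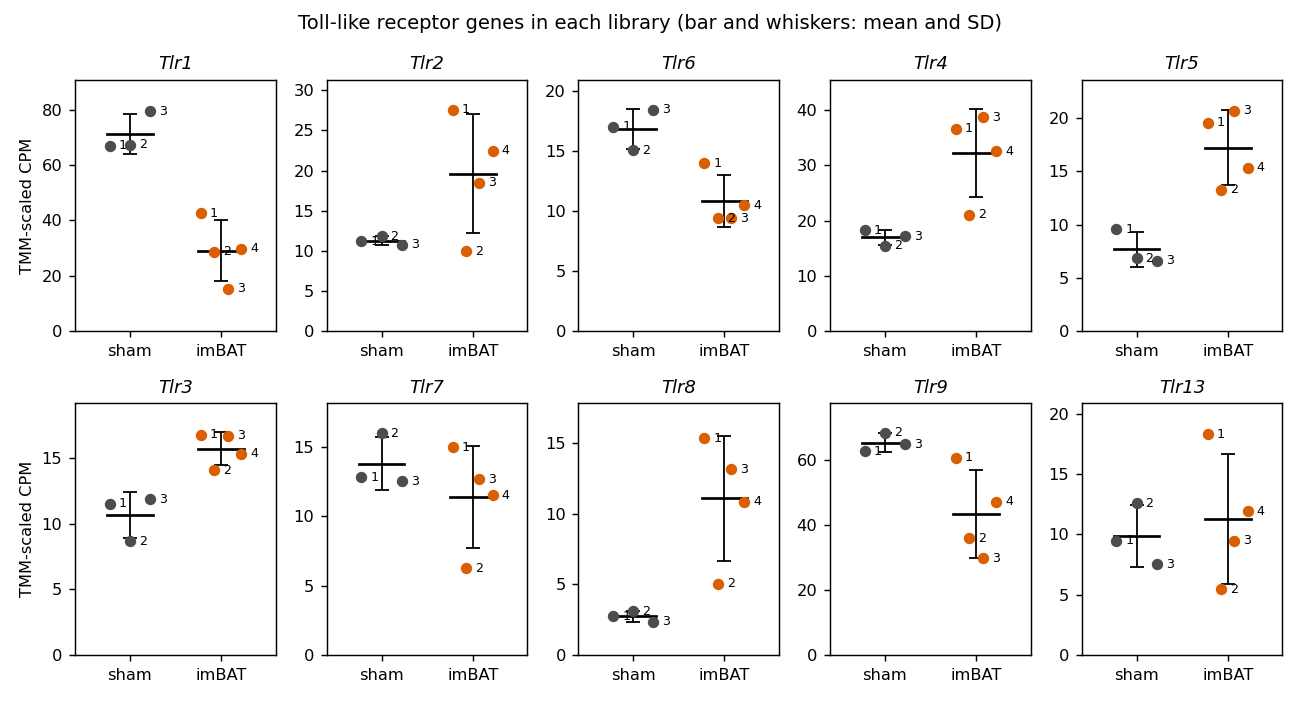
TMM-scaled CPM (vertical axis, from 0) of each gene in the 3 sham and 4 imBAT libraries; points are libraries numbered by replicate, and bars and whiskers are the mean and SD. Tlr8 lay at 2.349 to 3.113 CPM in sham and 5.037 to 15.34 CPM in imBAT, while Tlr1 lay at 66.97 to 79.36 and 15.42 to 42.56 CPM.

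Levels of different genes were compared as CPM per kb of exon. In sham, Tlr1 stood at 21.3 ± 2.11 CPM per kb (SD, n = 3) and Tlr9, the receptor for unmethylated CpG DNA, at 18.8 ± 0.842. These 2 genes made up 34.6% and 30.6% of the summed length-scaled level of the family. Tlr6 followed at 4.51 ± 0.455, and its range did not overlap that of Tlr2 at 3.74 ± 0.182. Tlr2, Tlr7 (3.38 ± 0.469), Tlr4 (3.05 ± 0.252), Tlr13 (2.29 ± 0.598), Tlr3 (2.05 ± 0.337) and Tlr5 (1.6 ± 0.346) formed a run in which each range overlapped the next. Tlr8 was lowest at 0.765 ± 0.107, below every value of Tlr5.

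In imBAT Tlr9 was first at 12.5 ± 3.92 CPM per kb (SD, n = 4), above Tlr1 in 4 of 4 libraries, and Tlr1 was second at 8.71 ± 3.31. Tlr2 (6.51 ± 2.47), Tlr4 (5.8 ± 1.42), Tlr5 (3.6 ± 0.731), Tlr8 (3.1 ± 1.24), Tlr3 (3.02 ± 0.246), Tlr6 (2.9 ± 0.578), Tlr7 (2.78 ± 0.901) and Tlr13 (2.62 ± 1.25) came after. Every range overlapped that of its neighbour in this order. The share of the family total held by Tlr1 was 32.8% to 37.6% in sham and 10.2% to 22.4% in imBAT. The share held by Tlr8 was 1.04% to 1.41% in sham and 3.67% to 8.11% in imBAT. The summed level of all 10 genes lay at 60 to 63.1 CPM per kb in sham and at 69.2, 38.3, 45.3 and 53.4 in imBAT replicates 1 to 4, so the imBAT libraries lay on both sides of the sham range.

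**Figure D2:**
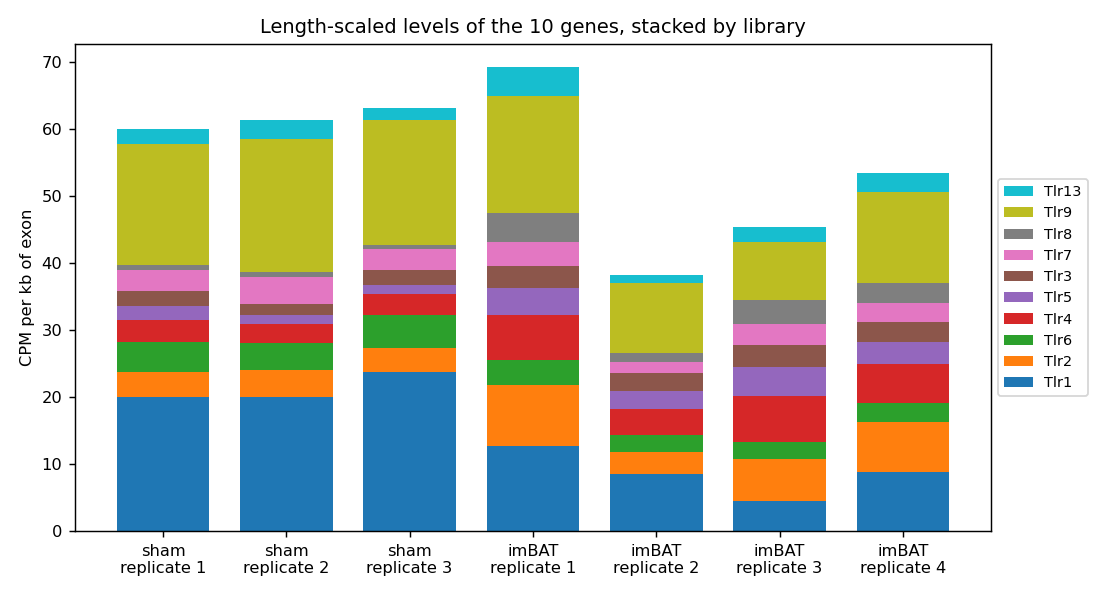
Stacked CPM per kb of exon (vertical axis) of the 10 receptor genes in each library (horizontal axis). Tlr1 and Tlr9 fill most of each sham bar, and the Tlr8 segment is thicker in every imBAT bar (3.67% to 8.11% of the bar) than in the sham bars (1.04% to 1.41%).

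Among the receptors for bacterial lipoproteins, Tlr1 and Tlr6 fell and Tlr2 was not called. Tlr2 pairs with Tlr1 to bind triacylated lipoproteins and with Tlr6 to bind diacylated ones. Tlr1 (chromosome 5, 64924679 to 64933563, GRCm38, minus strand) stood at 66.97, 67.3 and 79.36 CPM in sham replicates 1 to 3 and at 42.56, 28.73, 15.42 and 29.8 CPM in imBAT replicates 1 to 4. Every imBAT value lay below every sham value, with imBAT replicate 3 lowest. The fall was 2.44-fold, a log2 fold change of -1.29 ± 0.28 (SE, adjusted p = 0.00733).

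Tlr6, its neighbour on the same strand (64952031 to 64960097), stood at 17, 15.04 and 18.42 CPM in sham and at 13.95, 9.42, 9.395 and 10.48 CPM in imBAT. The groups did not overlap, and imBAT replicate 1 was closest to sham. Tlr6 fell 1.56-fold (log2 fold change -0.64 ± 0.17, adjusted p = 0.0173), and was no longer called when sham replicate 3 was left out (adjusted p = 0.0762). The pair encodes closely related proteins, and reads shared between near-identical stretches could be split by the authors' counting, so their separate values are uncertain to that extent.

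Tlr2 itself (chromosome 3, 83836272 to 83841767) stood at 11.23, 11.85 and 10.75 CPM in sham and at 27.58, 9.944, 18.5 and 22.48 CPM in imBAT. Of the imBAT libraries 3 lay above all sham values, and imBAT replicate 2 lay below them. The log2 fold change of 0.80 ± 0.30 was not called (adjusted p = 0.0593). It was called without imBAT replicate 2 (1.02, adjusted p = 0.00342), by DESeq2 (0.79, adjusted p = 0.0271) and by limma voom (0.87, adjusted p = 0.0242). For each unit of length there were 5.11 to 6.64 Tlr1 counts per Tlr2 count in sham and 0.751 to 2.6 in imBAT. For Tlr6 the ratio to Tlr2 was 1.03 to 1.38 in sham and 0.377 to 0.766 in imBAT. Both ratios were chosen after the values were seen and carry no test.

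The receptors for lipopolysaccharide and flagellin were both higher in imBAT. Tlr4, which binds lipopolysaccharide with Cd14 and Ly96, lies on chromosome 4 at 66827584 to 66930284. It stood at 18.23, 15.46 and 17.22 CPM in sham and at 36.63, 21.05, 38.74 and 32.53 CPM in imBAT. No values overlapped, and imBAT replicate 2 was the lowest of its group. Tlr4 rose 1.9-fold (log2 fold change 0.92 ± 0.20, adjusted p = 0.00754).

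Tlr5, the flagellin receptor (chromosome 1, 182954788 to 182976044), stood at 9.593, 6.828 and 6.619 CPM in sham and at 19.58, 13.28, 20.71 and 15.34 CPM in imBAT. The lowest imBAT library was again replicate 2, and it still lay above the highest sham library. Tlr5 rose 2.24-fold (log2 fold change 1.17 ± 0.21, adjusted p = 0.00379). Among the pairs of receptor genes, Tlr4 and Tlr5 had one of the closest profiles over the 7 libraries, with a root mean square difference of 0.21 in log2 CPM after each gene was centred on its own mean. The pair of Tlr6 and Tlr9 was closer, at 0.18.

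Among the endosomal receptors, Tlr8 changed most. Tlr8, known in humans as a sensor of single-stranded RNA and its breakdown products, lies on the X chromosome (167242696 to 167264329). It stood at 2.763, 3.113 and 2.349 CPM in sham and at 15.34, 5.037, 13.18 and 10.86 CPM in imBAT. The groups lay apart, with imBAT replicate 2 nearest to sham. Tlr8 rose 4.05-fold (log2 fold change 2.02 ± 0.36, adjusted p = 0.00367), the largest rise among the 10 genes.

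Tlr7, which senses single-stranded RNA and lies beside Tlr8 (X chromosome, 167304929 to 167330558), was not called. It stood at 12.82, 15.99 and 12.54 CPM in sham and at 14.95, 6.264, 12.67 and 11.53 CPM in imBAT. The groups overlapped, and imBAT replicate 2 was lowest. The log2 fold change was -0.28 ± 0.27 (adjusted p = 0.42).

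Tlr3, the receptor for double-stranded RNA (chromosome 8, 45395665 to 45411080), stood at 11.52, 8.656 and 11.84 CPM in sham and at 16.77, 14.08, 16.7 and 15.32 CPM in imBAT. All imBAT libraries lay above all sham libraries, within a narrow band. Tlr3 rose 1.47-fold (log2 fold change 0.56 ± 0.15, adjusted p = 0.0182). It was no longer called when sham replicate 2 was left out (adjusted p = 0.0691) or with upper-quartile scaling (0.32, adjusted p = 0.088). An antisense gene, Gm45542, overlaps 381 bp of its exons, and the strand setting of the counts is not given in the sources used here.

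Tlr9 (chromosome 9, 106222598 to 106226883) stood at 62.79, 68.59 and 64.95 CPM in sham and at 60.87, 36.09, 29.78 and 47.22 CPM in imBAT. All imBAT values were lower, but imBAT replicate 1 lay close to the sham range. The log2 fold change of -0.59 ± 0.22 was not called (adjusted p = 0.0561). It was called without imBAT replicate 1 (-0.79, adjusted p = 0.0121) or imBAT replicate 3 (-0.50, adjusted p = 0.0496), by DESeq2 (adjusted p = 0.0397), by limma voom (adjusted p = 0.0398), with upper-quartile scaling (-0.83, adjusted p = 0.0128) and when only genes with 1 CPM or more in 3 or more libraries were tested (-0.61, adjusted p = 0.0463).

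Tlr13, a sensor of bacterial ribosomal RNA found in mice and lost in humans (X chromosome, 106143204 to 106160493), stood at 9.482, 12.61 and 7.512 CPM in sham and at 18.32, 5.446, 9.469 and 11.91 CPM in imBAT. The imBAT libraries spanned the whole sham range. Its log2 fold change was 0.19 ± 0.37 (adjusted p = 0.697), and the sign turned without imBAT replicate 1 (-0.14) and with upper-quartile scaling (-0.06). That scaling moved the median of all genes from -0.01 to -0.25.

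**Figure D3:**
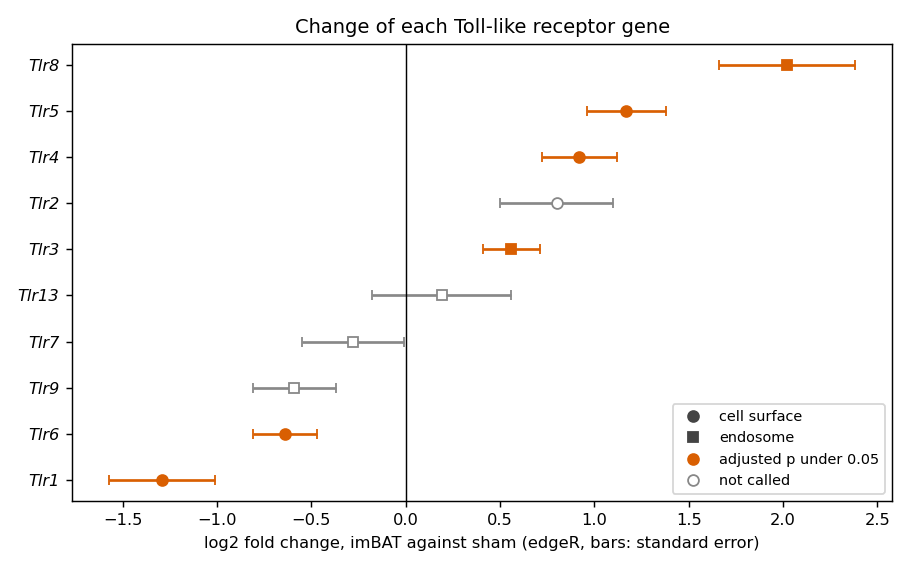
edgeR log2 fold change of each gene, imBAT against sham (horizontal axis), with its standard error; circles are surface and squares endosomal receptors, and filled symbols passed an adjusted p under 0.05. The genes run from Tlr1 at -1.29 to Tlr8 at 2.02, and each site holds genes on both sides of 0.

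Ratios between receptors within a library do not depend on how library totals are scaled, so 4 pairs were compared in that way. The log2 ratio of Tlr7 to Tlr8 per unit length was 2.02, 2.17 and 2.22 in sham and -0.22, 0.13, -0.24 and -0.10 in imBAT. Tlr7 was thus 4.4 times the level of Tlr8 in sham and 0.926 times in imBAT, a difference of -2.25 in the mean log2 ratio. The 4 imBAT values lay within a span far smaller than the difference, although each gene alone varied widely in that group. The log2 ratio of Tlr1 to Tlr6 was 2.13, 2.32 and 2.26 in sham and 1.76, 1.76, 0.87 and 1.66 in imBAT, a difference of -0.72. For both pairs the groups did not overlap. The exact permutation test, made two-sided by doubling its smaller tail, gave p = 0.0571 (adjusted p = 0.114 over the 4 pairs). That is the smallest value this doubled tail can take with 3 against 4 libraries. The ratios of Tlr2 to Tlr4 (difference -0.19) and of Tlr7 to Tlr9 (difference 0.30) overlapped between groups (exact permutation p = 0.457 for each).

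**Figure D4:**
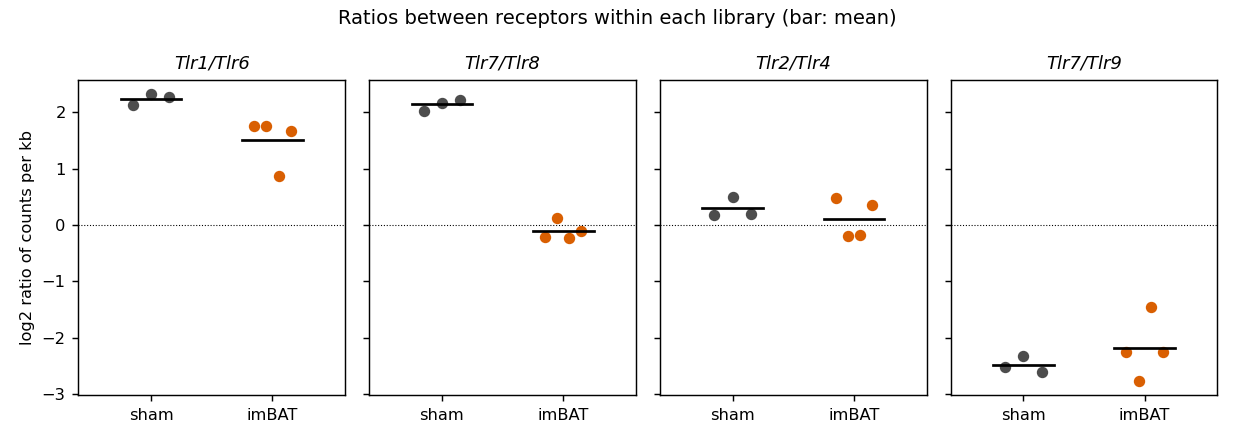
Log2 ratio of counts per kb (vertical axis) for 4 pairs of receptors in each sham and imBAT library; points are libraries and bars are means. Tlr7/Tlr8 lies at 2.02 to 2.22 in sham and at -0.24 to 0.13 in imBAT, while Tlr2/Tlr4 and Tlr7/Tlr9 overlap.

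Markers of the cells that carry these receptors moved with the groups, in a comparison where 24.3% of all genes were called higher and 19.3% lower. All 8 B cell markers fell (median log2 fold change -1.79, summed level 1546 to 1856 CPM in sham and 246.2 to 661 CPM in imBAT), as did all 8 T cell markers (median -1.51, 917.3 to 1138 and 151.5 to 473.7 CPM). Of 7 markers of plasmacytoid dendritic cells, which are rich in Tlr7 and Tlr9, 4 fell and none rose (median -1.31, 103 to 124.5 and 25.33 to 56.13 CPM). Of 8 markers of conventional dendritic cells 5 fell and none rose (median -0.81, 284.1 to 359.1 and 105.7 to 181.6 CPM). Of 10 macrophage markers 7 rose and none fell (median 1.52, 505.9 to 569.4 and 588.4 to 1873 CPM). Of 5 monocyte markers 3 rose and none fell (median 1.85, 212.3 to 253.8 and 531.5 to 1622 CPM). Most of that sum was Fn1, also a matrix gene, at 183.9 to 217 CPM in sham and 498.2 to 1540 CPM in imBAT. The monocyte genes Ccr2 and Chil3 were not called. All 8 adipocyte markers rose (median 2.94), as did 5 of 6 endothelial markers with 1 lower (median 0.96) and 6 of 7 adipose progenitor markers (median 1.52). No marker of these lists was at 0 in all libraries, and the part of these cells in the receptor changes was not tested.

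The imBAT libraries differed among themselves in the same way for several receptors. Tlr2, Tlr3, Tlr4, Tlr5, Tlr7, Tlr8 and Tlr13 were lowest within imBAT in replicate 2. In that library the macrophage gene Adgre1 stood at 20.28 CPM, against 232.4, 175.3 and 124.3 CPM in imBAT replicates 1, 3 and 4, and C1qa at 70.67 against 275.7, 221.3 and 190.2 CPM. Markers of other cells were low there too: of the genes in each list, 10 of 10 macrophage, 5 of 5 monocyte, 7 of 7 adipose progenitor and 7 of 8 adipocyte markers had their lowest imBAT value in replicate 2. Adipoq, the adipocyte hormone adiponectin, stood at 606.6 CPM there, against 1265, 1683 and 1129 CPM. Tlr1, Tlr6 and Tlr9 were lowest in imBAT replicate 3, Tlr6 only narrowly (9.395 CPM, against 9.42 CPM in replicate 2). The B cell gene Cd79a stood at 35.51 CPM there, against 89.29, 102.6 and 85.86 CPM in imBAT replicates 1, 2 and 4. Of other lists, 8 of 8 B cell and 8 of 8 T cell markers were lowest within imBAT in replicate 3. So were 6 of 7 plasmacytoid and 5 of 8 conventional dendritic cell markers. The same held for 5 of 6 markers of lymph node stroma and venules and 4 of 6 of mammary epithelium.

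Set against Ptprc, the pan-leukocyte antigen CD45, which itself fell 3.03-fold, a gene with equal CPM in both groups would stand higher in imBAT. For Tlr1 the log2 ratio to Ptprc was -4.29 ± 0.07 in sham (SD, n = 3) and -4.00 ± 0.33 in imBAT (n = 4), and the groups overlapped. The ratio of Tlr9 to Ptprc was -4.41 ± 0.10 and -3.38 ± 0.45 with no overlap, and that of Tlr8 was -9.00 ± 0.27 and -5.41 ± 1.09. Against Cd79a, a chain of the B cell receptor complex, the log2 ratio of Tlr1 was -1.75 ± 0.20 and -1.41 ± 0.34, again overlapping, and that of Tlr9 was -1.86 ± 0.21 and -0.79 ± 0.54.

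Against Csf1r, the growth factor receptor of macrophages, the differences in log2 ratio between the groups lay on both sides of 0. Csf1r stood at 193.1 ± 18.99 CPM in sham and 237.8 ± 66.81 CPM in imBAT and was not called (adjusted p = 0.316). Leaving out imBAT replicate 2 made it a call (0.49, adjusted p = 0.00899). The log2 ratio to Csf1r was -4.32 ± 0.30 in sham and -4.47 ± 0.40 in imBAT for Tlr13 and -4.19 ± 0.38 and -3.87 ± 0.39 for Tlr3, each with overlap. For Tlr7 it was -3.81 ± 0.09 and -4.40 ± 0.15, with no overlap and a small spread in both groups. For Tlr8 it was -6.14 ± 0.17 and -4.48 ± 0.28. The difference, imBAT minus sham, was -1.62 for Tlr1, -0.90 for Tlr6 and -0.89 for Tlr9, and 0.46 for Tlr2, 0.64 for Tlr4 and 0.91 for Tlr5, all with no overlap. These ratios are descriptions and carry no test.

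The genes whose profiles over the 7 libraries were most like each receptor were found by the root mean square difference of centred log2 CPM. For Tlr7 the nearest were the macrophage lysozyme gene Lyz2 (0.101), Lyz1 (0.160) and Dlx1as (0.160). For Tlr13 they were Ttc21a (0.185), Tyrobp, an adaptor of myeloid receptors (0.185), and Lyve1 (0.207). For Tlr2 they were Npl (0.142), the macrophage lysosomal gene Cd68 (0.143) and Cpxm1 (0.143). For Tlr1 they were BC106179 (0.098), Rnase6, a secreted ribonuclease (0.102), and Cd300c (0.104). For Tlr6 the nearest was Ncf4, a subunit of the phagocyte oxidase (0.058), and for Tlr9 the transcription factor Batf (0.079). For Tlr8 it was Qpct (0.177), for Tlr4 Ust (0.070), for Tlr5 Slc1a4 (0.055) and for Tlr3 the histone deacetylase Hdac5 (0.057). The values for Tlr8 and Tlr13 were the farthest of these nearest genes.

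Promoter windows of 300 bases, from 250 before to 50 after a start site, were held for 8 of the 10 genes in the RefSeq table (GRCm38.p6), with a pair of windows each for Tlr1 and Tlr6. The letters GAGGAA, the core bound by the myeloid and B cell factor PU.1, were searched on both strands and found in 4 of the 10 windows, beside 28.3% of all 32851 promoter windows of this length. The 4 windows are shown because they belong to genes that moved in different directions: Tlr1 lower, Tlr8 higher, Tlr9 and Tlr13 not called. Capitals mark the match, which reads TTCCTC where it lies on the other strand. The windows are chr5:64933509-64933808 (minus strand) for Tlr1, chrX:167264280-167264579 (minus) for Tlr8, chr9:106222348-106222647 (plus) for Tlr9 and chrX:106143025-106143324 (plus) for Tlr13.
Tlr1: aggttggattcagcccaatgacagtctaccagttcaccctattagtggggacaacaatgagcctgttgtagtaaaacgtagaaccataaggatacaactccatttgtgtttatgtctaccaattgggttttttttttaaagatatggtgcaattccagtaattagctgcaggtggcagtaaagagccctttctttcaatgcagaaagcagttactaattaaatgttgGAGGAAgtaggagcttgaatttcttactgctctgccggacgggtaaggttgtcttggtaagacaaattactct
Tlr8: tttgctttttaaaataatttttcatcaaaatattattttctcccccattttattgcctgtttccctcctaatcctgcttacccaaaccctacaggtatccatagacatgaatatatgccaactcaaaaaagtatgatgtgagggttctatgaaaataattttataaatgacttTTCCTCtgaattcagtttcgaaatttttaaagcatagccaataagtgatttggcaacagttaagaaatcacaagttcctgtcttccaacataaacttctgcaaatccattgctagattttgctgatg
Tlr9: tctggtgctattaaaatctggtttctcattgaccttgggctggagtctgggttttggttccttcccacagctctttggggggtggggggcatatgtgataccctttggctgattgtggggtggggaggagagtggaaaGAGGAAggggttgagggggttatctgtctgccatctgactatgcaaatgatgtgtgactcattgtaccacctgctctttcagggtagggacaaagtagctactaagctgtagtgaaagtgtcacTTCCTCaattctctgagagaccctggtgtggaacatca
Tlr13: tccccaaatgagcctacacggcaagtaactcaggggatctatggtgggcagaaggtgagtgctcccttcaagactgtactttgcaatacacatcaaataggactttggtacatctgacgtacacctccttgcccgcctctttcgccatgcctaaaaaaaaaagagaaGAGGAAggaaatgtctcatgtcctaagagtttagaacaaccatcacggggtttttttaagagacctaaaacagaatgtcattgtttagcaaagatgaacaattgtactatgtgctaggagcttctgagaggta
The match began 23 bases before the start site in Tlr1, 77 before in Tlr8, 83 before in Tlr13, and 112 before and 12 after in Tlr9. An NF-kB pattern, GGG, any 5 bases and CC, was found in 4 of the 10 windows (Tlr2, Tlr3, Tlr5 and 1 of Tlr6) beside 50.8% of all windows, with 7 matches in Tlr2 that lie in 2 clusters, 3 of them beginning 173 or 172 bases before the start site and 4 beginning 9 to 7 before, and overlap within each. The interferon response pattern, GAAA, any 2 bases and GAAA, was found in 1 window, of Tlr6, with 2 matches, beside 3.44% of all windows. The AP-1 pattern TGANTCA was found in the Tlr9 window, beside 7.81%, and TATAAA in 2 windows, of Tlr6 and Tlr8, beside 13.6%. These patterns were searched on both strands too. A match describes letters and not a bound site.

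Downstream of the receptors, the calls in each list below stand beside 43.5% of all genes called, and a share near it says nothing particular about the list. Of 21 adaptors and kinases 2 rose and 6 fell (median log2 fold change -0.10). With upper-quartile scaling the counts were 1 and 11. Myd88, the shared adaptor, stood at 31.18 ± 2.75 CPM in sham and 32.25 ± 2.36 CPM in imBAT (log2 fold change 0.05 ± 0.11, adjusted p = 0.732). Ticam1 and the kinase Irak4 lay at -0.07 ± 0.13 and -0.04 ± 0.10, and Ticam2, the adaptor that links Tlr4 to Ticam1, at 0.58 ± 0.36 (adjusted p = 0.22). Ticam2 was called when imBAT replicate 2 was left out (0.83, adjusted p = 0.02). Irak4 was called with upper-quartile scaling (-0.27, adjusted p = 0.0445), which also turned the sign of Myd88 (-0.19). Tirap, the adaptor that brings Myd88 to Tlr2 and Tlr4, rose 1.52-fold (adjusted p = 0.00709). Btk, a kinase of B cells and myeloid cells, fell 2.43-fold, the NF-kB kinase Ikbkb 1.81-fold and Traf3 1.69-fold (adjusted p = 0.00145, 0.0027 and 0.00368). Traf6, the ubiquitin ligase below Myd88, fell 1.22-fold, and 5 of the 7 libraries each ended that call when left out: all 3 of sham, and imBAT replicates 2 and 4 (adjusted p at most 0.165). It was also lost with no expression filter (adjusted p = 0.0827). Over the list, 5 genes were called without sham replicate 2, and 5 without sham replicate 3. B cell markers fell beside this list (median -1.79) and macrophage markers rose (median 1.52), and the part of either was not tested.

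Of 13 transcription factors of the pathway 4 rose and 8 fell (median -0.47). The falls included Rel, the lymphoid NF-kB subunit (2.83-fold, from 144.7 ± 26.5 to 51.0 ± 12.6 CPM), Irf8 (2.59-fold) and Irf5, which acts below Tlr7 and Tlr9 (1.85-fold, adjusted p = 0.00131). Jun rose 2.82-fold (adjusted p = 0.00162) and Irf7, the interferon-inducible factor that drives type I interferon genes, rose 2.79-fold from 31.4 ± 5.16 to 87.8 ± 37.0 CPM (adjusted p = 0.0103). Rela, the main partner of Nfkb1, lay at -0.05 ± 0.09 and was the one member not called. B and T cell markers fell beside Rel, Irf8 and Irf5 (medians -1.79 and -1.51), while macrophage markers rose (median 1.52). The part of these cells was not tested, and 43.5% of all genes were called beside these 12 of 13.

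Of 10 co-receptor and ligand delivery genes 4 rose and 3 fell (median 0.03). Cd14, which hands lipopolysaccharide to Tlr4, rose 2.72-fold from 27.0 ± 11.5 to 73.6 ± 12.3 CPM (adjusted p = 0.00478), the plasma carrier Lbp 4.44-fold and the lipid scavenger receptor Cd36 6.6-fold (adjusted p = 0.000996 and 0.00102). Ly96, the partner that completes the Tlr4 complex, stood at 3.49 ± 0.744 and 2.49 ± 0.364 CPM and was not called (log2 fold change -0.49 ± 0.22, adjusted p = 0.107) except with upper-quartile scaling (-0.73, adjusted p = 0.0299). Cd180 and Ly86, which form a Tlr4-like complex on B cells, fell 2.34-fold and 1.91-fold (adjusted p = 0.0097 and 0.00181). Mrc1, the mannose receptor of macrophages, rose 6.7-fold. Cd36 is also an adipocyte gene, and adipocyte markers rose beside it (median 2.94).

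Of 17 genes that fold, move or process endosomal receptors 4 rose and 3 fell (median 0.03), and with upper-quartile scaling 3 rose and 6 fell. Unc93b1, which carries the endosomal receptors out of the endoplasmic reticulum, stood at 239.7 ± 6.16 and 244.7 ± 58.2 CPM (log2 fold change 0.03 ± 0.18, adjusted p = 0.904), and the chaperone Cnpy3 lay at 0.11 ± 0.09 (adjusted p = 0.371). The lysosomal proteases Ctsb and Ctsl rose 3.25-fold and 2.06-fold (adjusted p = 0.00233 and 0.013), the latter not called without sham replicate 3 (adjusted p = 0.051). Rab7 rose 1.41-fold, a call lost with upper-quartile scaling (0.25, adjusted p = 0.0838), and the ribonuclease gene Rnaset2b, near-identical to Rnaset2a and so uncertain, fell 2.33-fold. Without sham replicate 3 the list had 3 called genes. Macrophage markers rose beside the proteases (median 1.52) and B cell markers fell (median -1.79), and the part of either was not tested.

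Of 18 negative regulators 3 rose and 10 fell (median -0.54). Tank, Socs1, Cyld and Nfkbie, which restrain kinases, cytokine signals, ubiquitin chains and NF-kB, fell 1.62-fold, 2.16-fold, 1.74-fold and 2.27-fold (adjusted p = 0.00097, 0.0015, 0.00198 and 0.00213). Irak3, the inactive kinase of macrophages, rose 1.64-fold (adjusted p = 0.033), a call lost with upper-quartile scaling (0.47, adjusted p = 0.0943) and without any single library other than imBAT replicate 2 (adjusted p up to 0.108). T cell markers fell beside this list (median -1.51) while macrophage markers rose (median 1.52), and the part of either was not tested.

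Of 12 genes for endogenous ligands 6 rose and 1 fell (median 2.17). That median includes S100a8, S100a9 and Saa3, at 3.64, 3.24 and 3.75, which were not called (adjusted p = 0.0507, 0.0549 and 0.0592). Their means were only 0.2459, 0.6053 and 0.1518 CPM in sham. Within imBAT S100a8 and S100a9 were highest in replicate 4 (9.972 and 16.71 CPM), and Saa3 in replicate 1 (6.507 CPM). Lcn2, a secreted iron-trapping protein, was counted in this list, though its place among ligands of these receptors is uncertain. The matrix genes Vcan, Fn1 and Dcn rose 9.3-fold, 5.43-fold and 2.86-fold, and Lcn2 rose 5.38-fold (adjusted p = 0.00145, 0.00195, 0.00147 and 0.00286). They are also made by stromal cells, whose progenitor markers rose beside them (median 1.52). Dcn is itself one of those progenitor markers, and its own log2 fold change of 1.52 is that median. Markers of mammary epithelium rose too, 6 of 6 (median 2.10, summed level 122 to 441.9 CPM in sham and 920.6 to 1800 CPM in imBAT). Lcn2 stood at 64.69, 16.85 and 32.65 CPM in sham. The epithelial gene Epcam, 1 of those 6 markers and chosen after its values were seen, stood there at 57.75, 16.93 and 31.35 CPM. In imBAT replicates 1 to 4 Lcn2 stood at 232.1, 191.4, 172 and 223.2 CPM. The 6 mammary markers summed there to 1222, 1800, 920.6 and 990.2 CPM, an order unlike that of Lcn2. That sum is a different measure from Epcam alone, so the groups are not compared alike. The part of these cells in the level of Lcn2 was not tested. Of 20 tested target genes 4 rose and 7 fell (median -0.22). Tnf fell 2.74-fold from 15.8 ± 1.87 to 5.75 ± 2.04 CPM, Il12a 4.59-fold and the costimulatory genes Cd40 and Cd86 2.9-fold and 2.18-fold (adjusted p = 0.00367, 0.0035, 0.00261 and 0.00229). Il12b fell 3.3-fold from 1.56 ± 0.693 CPM, a call that ended when sham replicate 2, sham replicate 3 or imBAT replicate 2 was dropped (adjusted p at most 0.0978). Il1b stood at 1.57 ± 0.434 and 2.24 ± 1.50 CPM (log2 fold change 0.50 ± 0.52, adjusted p = 0.459). Il6 was too low to test and Ifnb1 had a count of 0 in all libraries. Without sham replicate 2 this list had 7 called genes.

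Of 18 other pattern receptors 4 rose and 4 fell (median -0.12), and with upper-quartile scaling 2 rose and 7 fell. The DNA sensor Aim2 and the DNA pathway adaptor Sting1 fell 3.09-fold and 2.08-fold, Nod2 fell 1.7-fold, and the RNA sensor Ifih1 rose 1.95-fold (adjusted p = 0.00163, 0.00206, 0.00425 and 0.00467). Without sham replicate 2, sham replicate 3 or imBAT replicate 3, 5 genes of this list were called. The other mouse Toll-like receptor genes, Tlr11 and Tlr12, fell 2.4-fold and 3.07-fold (adjusted p = 0.0152 and 0.00369). For Tlr11 the call ended when sham replicate 1 or 3 was dropped (adjusted p at most 0.0539). They stood at 7.74 ± 1.69 and 12.4 ± 0.764 CPM in sham. B cell and plasmacytoid dendritic cell markers fell beside them and macrophage markers rose, and the part of these cells was not tested.

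**Figure D5:**
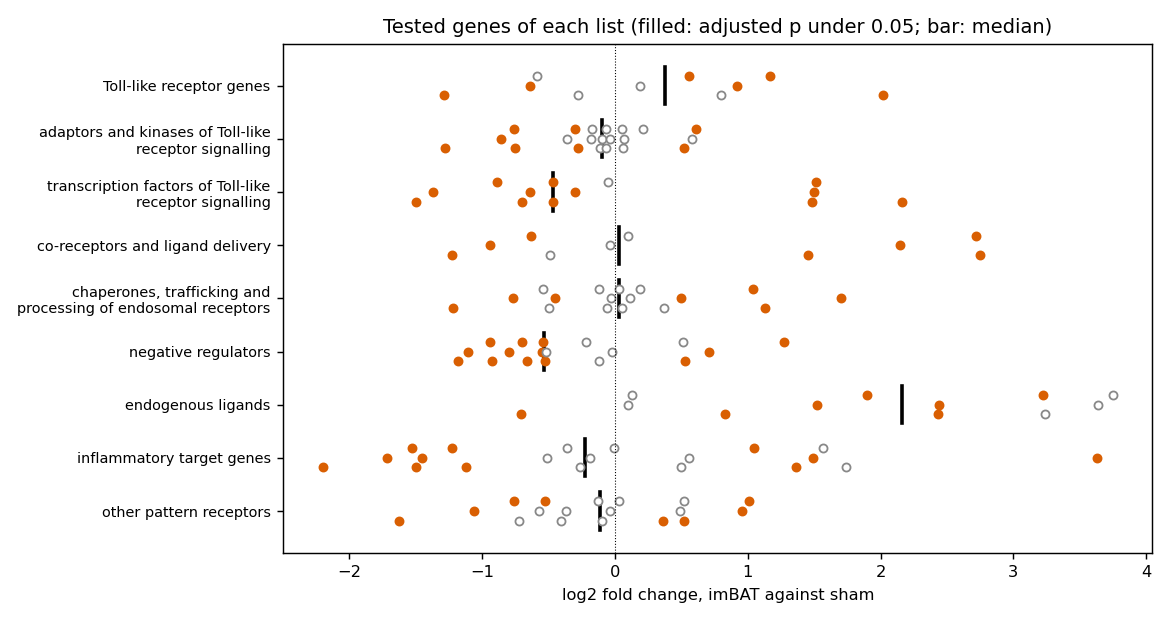
edgeR log2 fold change, imBAT against sham (horizontal axis), of the tested genes of each list (rows); points are genes, filled at an adjusted p under 0.05, and bars are medians. The receptors spread from -1.29 to 2.02 around a median of 0.38, while the medians of the signalling lists lie between -0.54 and 0.03 and that of the endogenous ligands at 2.17. The ligand row includes S100a8, S100a9 and Saa3, low in sham and not called, at 3.64, 3.24 and 3.75.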

How the data were processed

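The values are raw counts by gene, which the authors deposited as 1 table. STAR 2.7.9a did the alignment against Ensembl release 101, per the labels' protocols. Salmon 1.5.2, Subread, limma, edgeR and featureCounts 2.0.3 are named per the submitters' processing notes without their roles. Strandedness and the treatment of multimapping reads: not given in the sources used here.

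The 7 columns were matched to libraries by title. Of 55774 rows, 287 repeated an identifier and were dropped. Groups came from the treatment label. Replicates were numbered in accession order, which pairs nothing. Counts were tested with edgeR 4.0.16 in R 4.3.3 (TMM scaling, filterByExpr with minimum count 10, robust quasi-likelihood fit, group alone, 5 residual degrees of freedom), with Benjamini-Hochberg adjustment over all 26393 genes tested. A standard error is the log2 fold change divided by the square root of F. Coordinates and exon lengths (union of exons) are from GENCODE M21 on GRCm38, the build of that Ensembl release, and promoters from RefSeq. Ratios used counts plus 0.5 per unit of exon length. No pair of libraries in a group was alike within sampling noise (chi-square of 20.4 to 216.1 per degree of freedom).

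The members, lists and alternatives were chosen with earlier results of these data known. All 10 members are named. From each pathway list come the 4 genes with the smallest p, and 20 genes and 3 reference genes were fixed by name. Rela, Adgre1, C1qa, Cd79a, Epcam, Lep, Ccr2 and Chil3 were named after their values were seen. The gene Tasl was not matched by symbol and was not used. Alternatives tried were scaling by RLE or upper quartile, 2 other filters, DESeq2 1.42.0, limma 3.58.1 voom, a block on the number that opens each title, a lymphoid covariate, leaving out each library, and an adjusted p under 0.10. On simulated counts over 25963 genes for this comparison, edgeR recovered 29% of genes changed by 1 and 74% of those changed by 2 on the log2 scale, with 8 false calls among 111. DESeq2 gave 51 false calls among 188 on the same counts, and limma voom 7 among 104. Far fewer genes were changed in the simulation than the 43.5% called in the data. The shares recovered and falsely called there therefore do not carry over to the data.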

Additional observations from a re-analysis of the deposited data

Results flagged for a closer look

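In the 4 imBAT libraries, 3 of the 63 genes examined had a library far from the others by Dixon's test, where chance gives about 1 in 20 groups. Csf1r was lowest in imBAT replicate 2 (138 CPM), while the other 3 libraries held 267 to 275 CPM. For Cyld the low library was imBAT replicate 3 (75.7 CPM, others 96.9 to 99.8 CPM). For Rnaset2b imBAT replicate 4 was high (1.56 CPM, others 0.836 to 0.922 CPM). None of the 10 receptor genes met this test, and the sham group, with 3 libraries, was not examined.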

How the results depend on the processing

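Of the 6 receptor calls, those of Tlr1, Tlr4, Tlr5 and Tlr8 held under every alternative run except the lymphoid covariate. Leaving out each library in turn gave 5 to 7 called receptors. With the mean log2 CPM of T and B cell markers as covariate, no gene of 26393 was called (3436 at an unadjusted p under 0.05) and 0 receptors were called (0 at an unadjusted p under 0.05), and the values of Tlr1 and Tlr9 were 0.04 and 0.17. No other tool was run with this covariate. The score was 7.16 to 7.31 in sham and 4.42 to 5.96 in imBAT, so it and the group cannot be told apart. Upper-quartile scaling moved the calls over all genes from 6407 higher and 5084 lower to 4722 and 8180, and over the receptors from 4 and 2 to 3 and 3. It turned Tlr13 (-0.06), Myd88 (-0.19), Unc93b1 (-0.21) and Cnpy3 (-0.13). Leaving out 1 library gave 7519 (without sham replicate 2) to 11403 genes called. It gave 5 to 9 called adaptors and kinases, 3 to 8 trafficking genes, 7 to 11 target genes, 5 to 9 other pattern receptors, and 1 to 2 of Tlr11 and Tlr12. It turned the sign of values that were not called: Tlr13 (-0.14 to 0.43), Myd88 (-0.03 to 0.12, with -0.01 without sham replicate 3), Ticam1 (-0.14 to 0.04, with 0.01 without imBAT replicate 4), Irak4 (-0.08 to 0.01, with 0.00 without sham replicate 1), Unc93b1 (-0.13 to 0.16, with 0.00 without imBAT replicate 3) and Il1b (-0.02 to 0.75). The numbers that open the titles occur in both groups for 3 pairs, whose deviations correlated at -0.01, 0.10 and 0.11, so they were not taken to pair the libraries, though 2 of 3 sham libraries correlated best with their own number. The replicate block, in which imBAT replicate 2 has no partner and adds nothing, gave 10853 genes and 7 receptors, with Tlr2 (1.00, adjusted p = 0.00666), Ticam2 (0.80, adjusted p = 0.0223) and Csf1r (0.49, adjusted p = 0.013) called and Traf6 not (-0.27, adjusted p = 0.0601). The lowest receptor count in any library was 121.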

Other observations

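Mast cell genes, which mark granule-rich immune cells of connective tissue, rose in all 5 tested members (median log2 fold change 2.30), beside 24.3% of all genes called higher and 19.3% lower. Their summed level was 64.91 to 104.4 CPM in sham and 185.2 to 232.9 CPM in imBAT, with no overlap. The chymase genes Mcpt4 and Cma1 rose 4.93-fold and 5.8-fold (adjusted p = 0.00126 and 0.00155), and Cpa3, a mast cell carboxypeptidase, rose 5.05-fold. Of 5 natural killer cell genes, Eomes and Klrk1 fell 2.3-fold and 2.66-fold (adjusted p = 0.0128 and 0.00386), and the granzyme gene Gzma rose 3.01-fold from 0.747 ± 0.413 CPM (adjusted p = 0.0155). These lists were chosen with earlier results of these data known, and adipocyte markers rose beside them (median 2.94).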
